A study of Mus musculus with 6 samples.

Results

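Translation factors and aminoacyl-tRNA synthetases were followed in RNA bound to tagged ribosomes of mouse brain, 3 days after a transient stroke. The set comprised the 102 of 12968 genes in the deposited table whose symbols begin with Eif1 to Eif6, Eef1 or Eef2, or are those of a synthetase (a single letter followed by ars or ars2, with Farsa, Farsb and Eprs). By symbol 55 of them (Eif) were classed as initiation genes, 10 (Eef) as elongation genes and 37 as synthetase genes. The last were divided into 20 cytosolic and 17 mitochondrial enzymes. The initiation class thus includes the eIF2 kinases, the eIF4E-binding proteins and pseudogenes, and the elongation class includes modifiers of its factors. The rule uses the symbols and no measured value.

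The MCAO animals were 3 RiboTag mice subjected to middle cerebral artery occlusion (MCAO) for 1 h and killed after 3 days, and the controls were 3 RiboTag mice without MCAO. RiboTag mice carry an allele of a ribosomal protein gene that gains an epitope tag where Cre recombinase has acted, so that ribosomes of the chosen cells can be precipitated with their mRNA. The series title names astrocytes, whereas the labels give no Cre driver, sex, age or sham operation. RNA came from the middle section of the left hemisphere and was precipitated 2 times and pooled for each animal. Each of the 6 libraries is a separate animal, with 2 technical replicates per animal in the design text, and nothing in the labels says how those were joined.

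Initiation factors bring the initiator tRNA, the mRNA cap and the ribosomal subunits together, elongation factors deliver charged tRNAs and move the ribosome along the message, and synthetases charge each tRNA with its amino acid. Phosphorylation of eIF2 by its kinases blocks its recycling by eIF2B and lowers initiation while letting ATF4 be made, a transcription factor that raises many cytosolic synthetase genes. Ischaemic brain is known for such a block of protein synthesis, and it acts on proteins, whose phosphorylation and amount an RNA measurement does not show.

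The deposited values are gene counts divided by a size factor of each library, called scaled reads here. Whole reads could be recovered from them, and the library totals ranged from 882263 to 4567615 reads in the MCAO group and from 1538901 to 9519548 reads in the control group. MCAO 2 and control 2 were the shallowest library of their group, and a count of 3 reads corresponds to 9.33 and 5.32 scaled reads in them. All 10 astrocyte markers and all 11 neuron markers searched were present and tested, and limma called none. Of the astrocyte markers 8 were lower and 2 higher after MCAO, with a median log2 difference of -0.31. Of the neuron markers 6 were lower and 5 higher, with a median of -0.02. The 2 astrocyte markers Slc1a3 and Sparcl1, both lower after MCAO, had an unadjusted p under 0.05 and were called by DESeq2. Among neuron markers 0 had such a p or a DESeq2 call, and edgeR called 0 of either type. The marker sums spanned 38787 to 50746 scaled reads in MCAO libraries against 42689.9 to 70855 in controls for astrocytes, and 22590.0 to 25410.2 against 22199.6 to 27338 for neurons. Microglia markers summed to 2187 to 2889 scaled reads in MCAO libraries against 594 to 773 in controls. All 12 were higher after MCAO, 11 of them at an unadjusted p under 0.05, and limma called 9. All 9 oligodendrocyte markers were higher, each at an unadjusted p under 0.05, and limma called 5 and DESeq2 8. All 5 proliferation markers measured were higher, each at an unadjusted p under 0.05, and limma called 4. Limma called both of the 2 blood myeloid markers measured higher. Of 4 endothelial markers tested limma called 0, with 0 at an unadjusted p under 0.05 and 0 by edgeR and DESeq2. Of all genes tested limma called 2.30% higher after MCAO, and 19.3% had an unadjusted p under 0.05 in either direction. In such bulk material fewer cells of a type and less RNA per cell cannot be told apart, and the part of these other cells in the results below was not tested.

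No translation factor or synthetase gene passed the test between MCAO and control animals. The limma test on log2(scaled reads + 1), with Benjamini-Hochberg adjustment over 12549 genes (mean 10 or more), called 0 of 101 members, where it called 3.08% of all genes (2.30% higher and 0.789% lower after MCAO). The remaining member, the pseudogene Eif1-ps1, was under that mean, with 11.8, 28.0 and 2.66 scaled reads in the MCAO libraries against 4.60, 5.32 and 7.55 in the controls. At an unadjusted p under 0.05 stood 12 members (10 higher and 2 lower), against 19.3% of all genes (1270 higher and 1150 lower of 12549). The groups did not overlap in 20 members, 15 with the MCAO libraries above and 5 with them below, against 24.9% of all genes in either direction (1550 above and 1574 below). Some of the 20 are not marked as such where their values are given below. These are Eef1a1, Eef1g, Eif2b2, Eif4a-ps4, Eif4ebp1, Eif6, Tars2 and Aars2, above the controls, and Eif4e3, below them. By edgeR's quasi-likelihood test on the recovered reads 1 member passed, Eif5a2, and by DESeq2 none did.

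The 95% interval of the log2 difference lay within ±1, a doubling or a halving, for 84 of 101 members, against 8459 of 12549 genes. The log2 differences ran from -1.47 for Eif4e3 to 0.81 for Eef1e1, and exceeded 0.5 in size in 13 members, against 2807 of 12549 genes. The median of the members was 0.12, with 73 positive and 28 negative. The median of all genes tested was -0.01, with 6107 positive and 6442 negative.

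**Figure D1:**
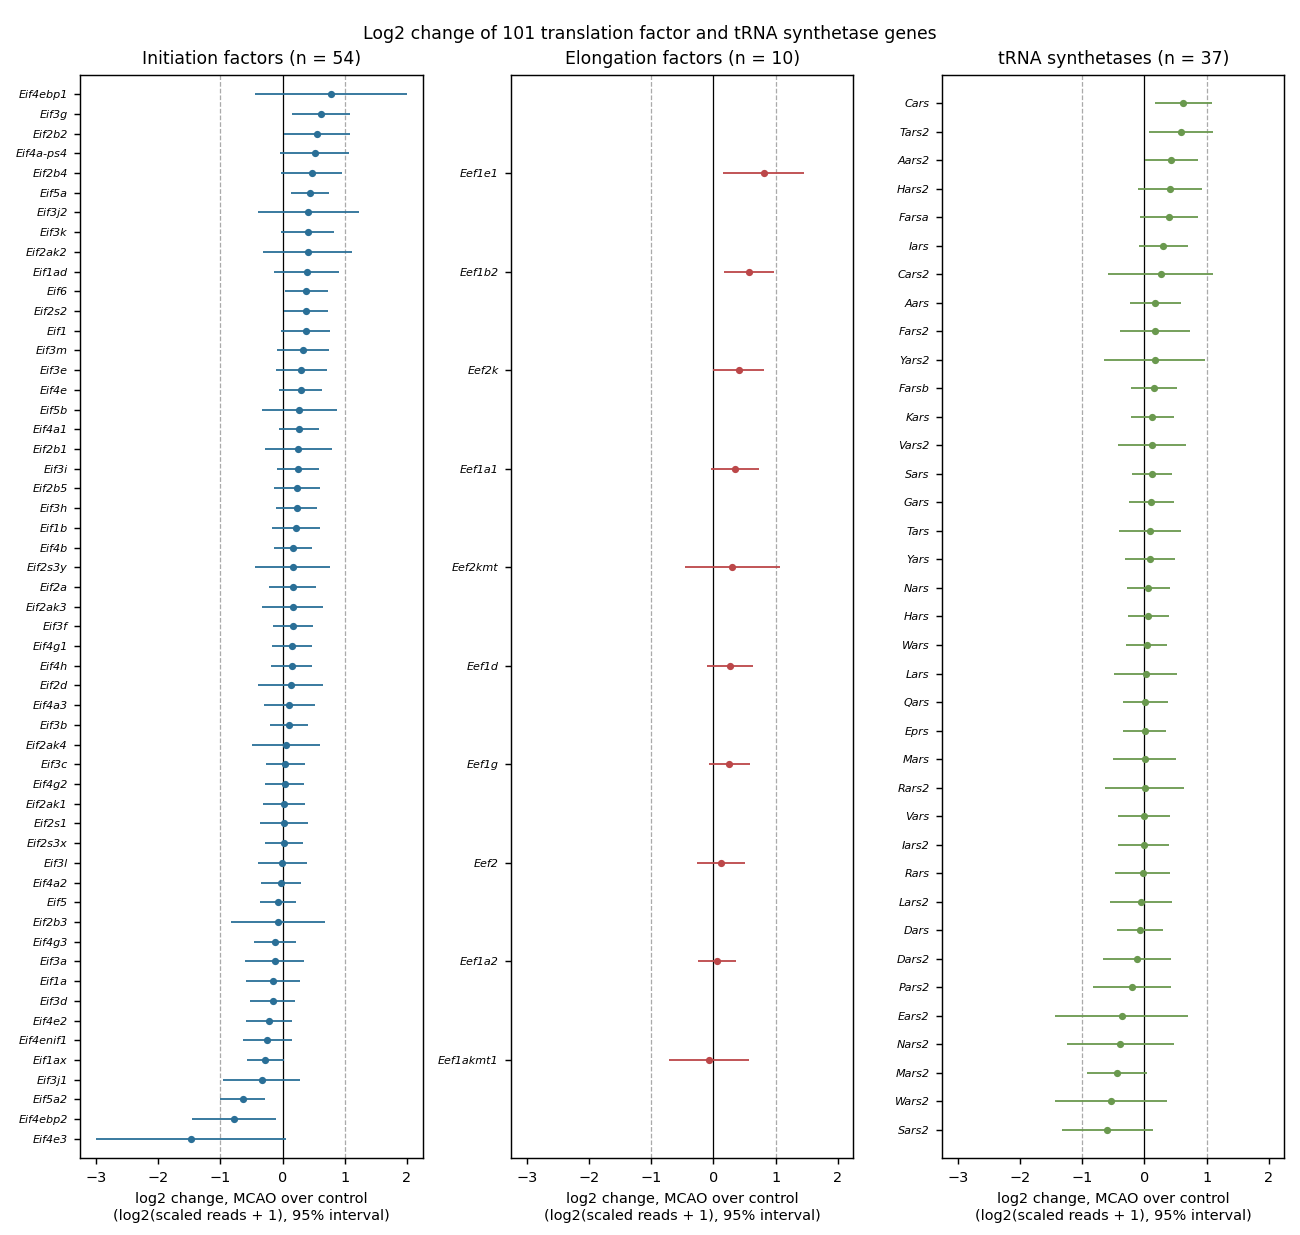
Log2 difference of each of the 101 tested members, MCAO over control, with its 95% interval from limma (n = 3 each), in panels for initiation, elongation and synthetase genes. Most points lie to the right of 0, 73 of 101, and most intervals lie between -1 and 1; Eif4e3, at the floor in MCAO 2, has a wide one.

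The factor eIF2, which carries the initiator tRNA, had 4 subunit genes in the table, and none passed the test. Eif2s1, the subunit that is phosphorylated under stress, had 136, 118 and 137 scaled reads in MCAO libraries 1, 2 and 3, against 126, 147 and 113 in control libraries 1, 2 and 3, the order kept for all values below. The groups overlapped, and the log2 difference was 0.02 (SE 0.18, 95% interval -0.36 to 0.41, limma adjusted p = 0.960). Eif2s2, the beta subunit, had 188, 221 and 181 scaled reads after MCAO against 159, 137 and 157 in controls, a log2 difference of 0.38 (SE 0.16) with adjusted p = 0.223 by limma. Here every MCAO library lay above every control, but the gene did not pass the test. The gamma subunit is encoded on both sex chromosomes in mice: the X-linked Eif2s3x differed by 0.02 (SE 0.14). Its Y-linked copy Eif2s3y had 44.1, 90.2 and 49.95 scaled reads after MCAO against 54.7, 46.1 and 55.8 in controls, so reads of it were present in every library. Because the 2 copies are alike in sequence, the division of reads between them is uncertain.

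None of the eIF2 kinases passed the test, and the groups overlapped in each that is given by library. Eif2ak3 (PERK), which senses unfolded protein in the endoplasmic reticulum, had 94.1, 74.6 and 81.9 scaled reads after MCAO against 78.0, 94.0 and 55.8 in controls (log2 difference 0.16, 95% interval -0.33 to 0.66). Eif2ak2 (PKR), which senses double-stranded RNA, had 32.9, 43.5 and 52.0 after MCAO against 30.5, 21.3 and 48.3 in controls (log2 difference 0.40, 95% interval -0.31 to 1.12). Eif2ak4 (GCN2), the sensor of uncharged tRNA, differed by 0.05 (SE 0.25), and Eif2ak1 (HRI), the haem-regulated kinase, by 0.03 (SE 0.16). None of these kinases had an adjusted p below 0.540 by limma. In eIF2B, the exchange factor that recharges eIF2 with GTP, the catalytic subunit Eif2b5 had 171, 230.2 and 198 scaled reads after MCAO against 153, 193 and 161 in controls, with overlapping groups. Eif2b2, a regulatory subunit, had 82.4, 149 and 84.6 after MCAO against 73.4, 76.3 and 58.9 in controls, a log2 difference of 0.55 (SE 0.25, limma adjusted p = 0.245). MCAO 2 was far above the other 2 MCAO libraries in this gene, with 48 recovered reads. Over the 5 subunits the log2 differences were positive in 4, with a median of 0.25.

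Subunits of eIF3, the scaffold that holds the small ribosomal subunit, ranged from -0.34 to 0.61 over 14 genes, with a median of 0.19; 10 were positive. The core subunit Eif3a had 1212, 1844 and 1429 scaled reads after MCAO against 1464, 2331 and 1216 in controls, where control 2 exceeded all other libraries. Eif3c, another core subunit, differed by 0.04 (SE 0.15). Eif3g, an RNA-binding subunit chosen after its values were seen, gave the largest difference of the 14, with 128, 187 and 114 scaled reads after MCAO against 106, 78.1 and 90.5 in controls (log2 0.61, SE 0.22, limma adjusted p = 0.141). Its MCAO libraries all lay above the controls. The near-identical copies Eif3j1 and Eif3j2, also chosen after their values were seen, were high and low in opposite MCAO libraries. Eif3j1 had 74.1, 212 and 102 scaled reads after MCAO against 142, 145 and 157 in controls, and Eif3j2 had 106, 40.4 and 109.9 against 98.4, 44.3 and 45.3. Their sum was 181, 252 and 212 scaled reads after MCAO against 240.3, 189.8 and 202 in controls, and the division of reads between the copies is uncertain.

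None of the 11 eIF4 factors, which recruit mRNA through its cap, passed the test or had an unadjusted p under 0.05. Eif4e, the cap-binding protein itself, had 297, 314 and 276 scaled reads after MCAO against 263, 200.5 and 266 in controls, without overlap, and differed by 0.29 (SE 0.16, limma adjusted p = 0.340). Of the helicases that unwind leader sequences, Eif4a1 had 817, 697 and 872 after MCAO against 644, 743 and 598 in controls, and Eif4a2 had 2009.7, 1804 and 1663 against 1746, 1992 and 1803. Their log2 differences were 0.26 (SE 0.15) for Eif4a1 and -0.02 (SE 0.15) for Eif4a2. The pseudogene Eif4a-ps4 is a copy of Eif4a1 and was listed with 65.3, 59.1 and 105 scaled reads after MCAO against 51.2, 58.5 and 45.3 in controls, reads that may be shared with its parent. Eif4g2, a scaffold that lacks the site for eIF4E, had 1973, 1938 and 1926 after MCAO against 1967, 1746 and 2009 in controls, a log2 difference of 0.03 with a 95% interval of -0.28 to 0.34. Eif4e3, a cap-binding relative, had 14.7, 1.00 and 19.3 after MCAO against 19.9, 24.8 and 24.1 in controls; the 1 in MCAO 2 is the floor of the table, and the log2 difference of -1.47 (SE 0.71) depends on it.

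The eIF4E-binding proteins, which hold eIF4E away from the scaffold when mTOR is inactive, had few reads. Eif4ebp2, the form best known in brain, had 17.1, 24.9 and 28.0 scaled reads in the MCAO libraries, against 38.0, 42.6 and 39.2 in the controls. All MCAO libraries lay below all controls, and the log2 difference was -0.78 (SE 0.31, limma adjusted p = 0.194). Eif4ebp1, which in many tissues is a target of ATF4, had 10.6, 18.7 and 11.99 scaled reads after MCAO against 10.1, 3.55 and 10.6 in controls, from 18, 6 and 18 recovered reads against 35, 2 and 7. Its log2 difference of 0.78 had a 95% interval of -0.43 to 2.00, too wide to bound. Eif4enif1, which carries eIF4E into the nucleus, had 87.1, 99.5 and 109 after MCAO against 115, 128 and 107 in controls, a log2 difference of -0.24 (SE 0.18).

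Among start-site and late-initiation factors the members nearest to a call were the paralogues Eif5a and Eif5a2, which encode the hypusine-bearing factor that helps the ribosome past difficult peptide bonds. Eif5a2 (mouse chromosome 3, 28781032 to 28798846, GRCm38.p6) had 109, 106 and 104 scaled reads in the MCAO libraries, against 182, 167 and 151 in the controls, from 186, 34 and 156 recovered reads against 633, 94 and 100. Every MCAO library was below every control, with means of 106 ± 2.81 and 167 ± 15.6 (SD, n = 3 each). The log2 difference was -0.64 (SE 0.17, 95% interval -0.999 to -0.28), with an adjusted p of 0.0559 by limma, 0.0404 by edgeR and 0.0544 by DESeq2. Eif5a (mouse chromosome 11, 69916712 to 69921958) stood the other way, with 581, 709 and 615 scaled reads after MCAO against 502, 451 and 447 in controls (log2 0.44, SE 0.14, limma adjusted p = 0.111), again without overlap. Expressed as the log2 ratio of Eif5a2 to Eif5a within a library, the values were -2.41, -2.75 and -2.57 after MCAO and -1.46, -1.43 and -1.57 in controls, -1.09 apart on average. This pair was chosen after its values were seen, so its ratio carries no test.

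Eif6, which keeps the large ribosomal subunit from joining too early, had 166, 184 and 204 scaled reads after MCAO against 138, 151 and 134 in controls (log2 0.38, SE 0.16, limma adjusted p = 0.220). Eif5b, the GTPase of subunit joining, had 507, 1393 and 629 after MCAO against 595, 766 and 558 in controls, with MCAO 2 far above all other libraries. Eif5, the GTPase activator of eIF2, had 849, 933 and 877 after MCAO against 927, 910.0 and 949 in controls and differed by -0.07 (95% interval -0.36 to 0.22). Of the start-codon scanners, Eif1 had 782, 1141 and 779 after MCAO against 718, 562 and 797 in controls, with MCAO 2 highest again, and it shares sequence with its pseudogene. Eif1ax had 397, 364 and 368 after MCAO against 457, 424 and 487 in controls, without overlap (log2 -0.28, SE 0.14, limma adjusted p = 0.294); its copy Eif1a may share reads with it. Of genes named for similarity to these factors, Eif2a, which can bring initiator tRNA to the ribosome apart from eIF2, differed by 0.16 (SE 0.18) and Eif1ad by 0.39 (SE 0.24). MCAO 2, the shallowest library, was the highest of the 6 in 20 of 54 initiation genes and 6 of 10 elongation genes, where it was so in 2847 of all 12549 genes. What part its depth has in these values was not tested.

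**Figure D2:**
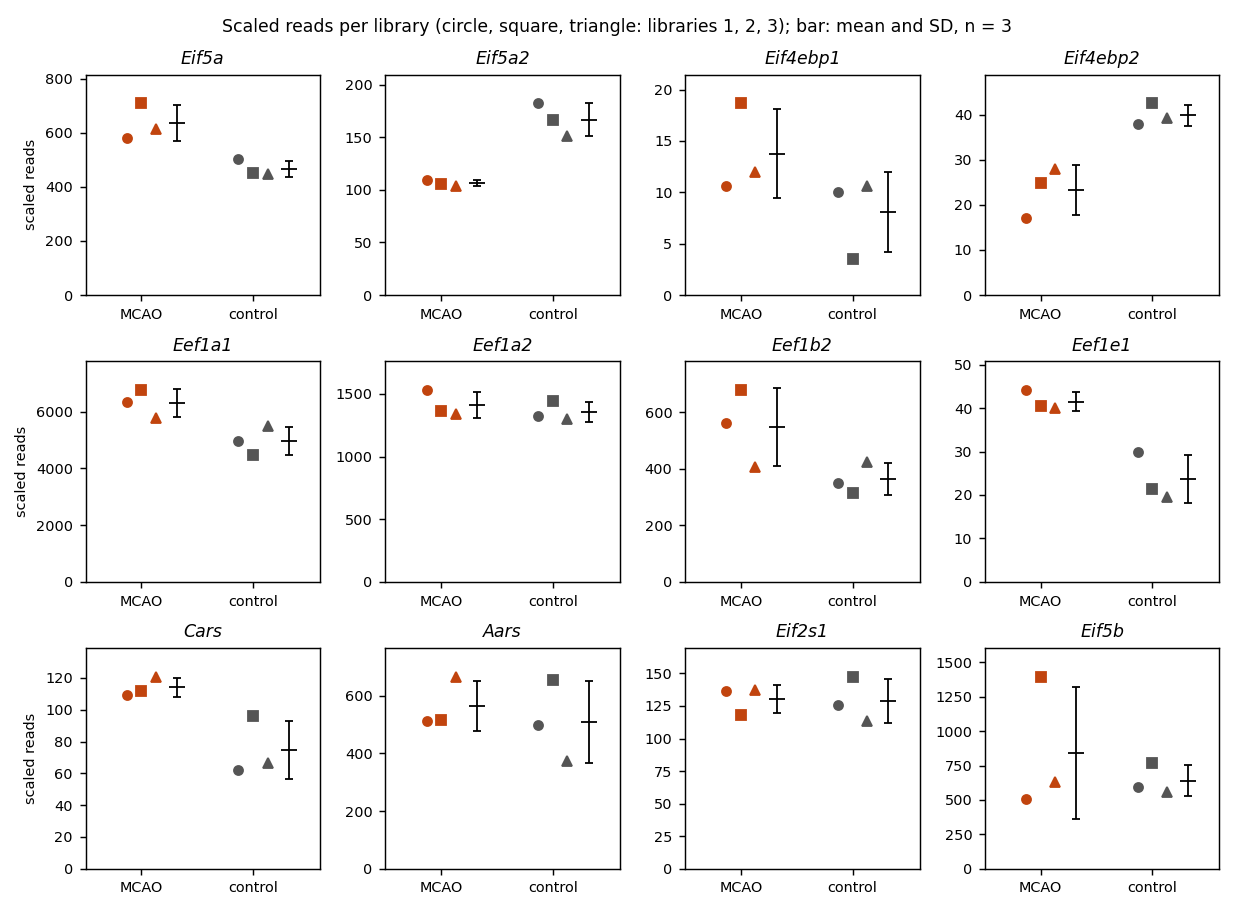
Scaled reads of 12 members in each library, MCAO beside control, with the mean and SD of each group (n = 3) beside its points. Eif5a2 and Eif4ebp2 lie lower and Eif5a, Eef1a1, Eef1e1, Cars and, narrowly, Eif4ebp1 higher in all 3 MCAO libraries. Eif2s1 and Aars overlap, and Eif5b has 1 high library, MCAO 2.

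Elongation genes had the highest median log2 difference of the classes, 0.28, with 9 of 10 positive; 2 had an unadjusted p under 0.05, and limma, edgeR and DESeq2 each called 0. Eef1a1, which delivers charged tRNAs to the ribosome, had 6346, 6762 and 5788 scaled reads after MCAO against 4952, 4489.8 and 5481 in controls (log2 0.34, SE 0.18, limma adjusted p = 0.322); reads of its many processed copies could have been counted with it. Eef1a2, the form that replaces it in mature neurons and muscle, had 1529, 1359 and 1337 after MCAO against 1320.4, 1446 and 1296 in controls, overlapping, with a difference of 0.06 (95% interval -0.25 to 0.36). Eef2, the translocase, had 4198, 5291 and 4418 after MCAO against 3962, 4809 and 4016 in controls and differed by 0.12 (95% interval -0.26 to 0.50).

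The exchange complex eEF1B, which reloads eEF1A with GTP, had no subunit that passed the test. Its catalytic subunit Eef1b2 had 562, 678 and 405 scaled reads after MCAO against 350.0, 314 and 426 in controls, a log2 difference of 0.57 (SE 0.19, limma adjusted p = 0.117). MCAO 3 lay below control 3, so the groups overlapped. Eef1g, the structural subunit, had 1108, 1399.6 and 1016 after MCAO against 959.8, 977 and 988 in controls (log2 0.25, SE 0.15). Eef1e1, a scaffold protein of the multi-synthetase complex despite its name, had 44.1, 40.4 and 40.0 after MCAO against 29.9, 21.3 and 19.6 in controls. All its MCAO libraries were above the controls, and its log2 difference of 0.81 (SE 0.30, 95% interval 0.16 to 1.46) was the highest of all members, at an adjusted p of 0.166 by limma. Eef2k, the kinase that inactivates eEF2, had 120.0, 146 and 165 after MCAO against 128, 97.6 and 99.6 in controls (log2 0.40, SE 0.19, limma adjusted p = 0.269), and Eef1akmt1, a methyltransferase of eEF1A, differed by -0.07 (SE 0.30).

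Synthetase genes had a median log2 difference of 0.06, with 25 positive and 12 negative; with 1 library left out it lay between -0.03 (without control 3) and 0.19 (without control 2). The 20 cytosolic enzymes had a median of 0.07 and the 17 mitochondrial enzymes one of -0.01. Of the cytosolic genes 13 are described as targets of ATF4, and these had a median of 0.08 (12 positive, 0 called, 1 at an unadjusted p under 0.05), against 0.06 for the other 7. Cars, the cysteine enzyme and the one of the 13 with that p, had 109, 112 and 121 scaled reads after MCAO against 62.2, 95.8 and 66.4 in controls, without overlap (log2 0.63, SE 0.21, limma adjusted p = 0.124). Aars, the alanine enzyme, had 512, 516 and 665 after MCAO against 499, 655 and 373 in controls, where control 2 lay above 2 of the MCAO libraries (95% interval of the log2 difference -0.24 to 0.59).

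Promoters of these genes were searched for the core of the amino acid response element to which ATF4 binds with its partners, spelled TGATGNAA, or TTNCATCA on the other strand. In RefSeq promoters of GRCm38.p6, from 250 bases before to 50 after each start, 5 of 8 ATF4 target synthetases with a promoter in the table held it (62.5%). It was in 0 of 5 other cytosolic and 0 of 14 mitochondrial synthetases. Among genes with a promoter it was in 241 of 9609 of the deposited table (2.51%) and in 1219 of all 27025 (4.51%). Of all 102 members 77 had a promoter and 7 of these held the motif. The targets were listed from general knowledge of ATF4, but with earlier results of these data known. Whether that knowledge itself rests on such elements was not examined, so their share with the motif is a description and no test. Matches are shown in the direction of their genes with 11 bases on either side and the motif in capitals, because the motif was found in most of the listed targets with a promoter and in few other promoters.
Aars, chr8:111033840-111033869, plus strand: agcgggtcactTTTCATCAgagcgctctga
Eef2k, chr7:120851094-120851123, plus strand: ctttctgcttgTTTCATCAagctcagcttg
Eif2s3x, chrX:94212729-94212758, minus strand: ttcgccatcatTTTCATCAggtctatgccg
Gars, chr6:55037960-55037989, plus strand: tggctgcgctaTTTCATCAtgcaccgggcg
Iars, chr13:49682126-49682155, plus strand: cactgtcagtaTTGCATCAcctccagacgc
Tars, chr15:11399655-11399684, minus strand: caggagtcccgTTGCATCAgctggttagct
Yars, chr4:129189895-129189924, plus strand: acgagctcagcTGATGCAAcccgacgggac

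The letters alone mark no bound site. Among the genes shown, Gars differed by 0.11 (95% interval -0.25 to 0.47), Iars by 0.30 (-0.09 to 0.70), Tars by 0.09 (-0.40 to 0.59) and Yars by 0.08 (-0.31 to 0.48) on the log2 scale, MCAO over control. These 4 intervals, like that of Aars, include 0 and none reaches 1 in size. Outside the synthetases, Eef2k and Eif2s3x held the motif, at the log2 differences given above.

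Further cytosolic enzymes also failed to pass the test. Sars, for serine, had 648, 731 and 739 scaled reads after MCAO against 641, 756 and 569 in controls (log2 0.12, 95% interval -0.20 to 0.43), and Nars, for asparagine, had 562, 609.6 and 597 against 513, 713 and 490.4 (log2 0.06, 95% interval -0.28 to 0.41). Eprs, the joint glutamate and proline enzyme, differed by 0.0038 (95% interval -0.34 to 0.35). Wars, the tryptophan enzyme known in human cells to be induced by interferon gamma, had 337, 364 and 364 after MCAO against 339.6, 415 and 294 in controls (log2 0.03, 95% interval -0.30 to 0.37). Mars, the methionine enzyme, had 135, 74.6 and 115 after MCAO against 88.4, 101 and 128 in controls, and neither group was tight.

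Mitochondrial enzymes charge tRNAs of the organelle's own genome, and their values scattered on both sides of 0, with 8 positive and 9 negative. Lars2, for leucine, had 352, 392 and 304 scaled reads after MCAO against 231, 511 and 399.9 in controls, where control 1 and control 2 stood farther apart than the groups. Iars2, for isoleucine, had 265, 202 and 262 after MCAO against 212, 325 and 208 in controls. Sars2, for serine, had the lowest difference of the synthetases, with 29.4, 15.6 and 29.3 after MCAO against 29.4, 40.8 and 40.7 in controls (log2 -0.60, SE 0.34, limma adjusted p = 0.363). MCAO 2 held 5 recovered reads of Sars2, and without that library the log2 difference was -0.31. In the opposite direction lay Tars2, for threonine, and Aars2, for alanine, both chosen after their values were seen. Tars2 had 83.5, 124 and 90.6 after MCAO against 72.8, 78.1 and 48.3 in controls (log2 0.59, limma adjusted p = 0.205), and Aars2 had 87.7, 106 and 97.9 against 68.8, 81.6 and 64.9 (log2 0.43, limma adjusted p = 0.255).

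The classes were compared within libraries, since all members of a library share its animal and depth. Each gene's log2 value was set against its own mean over the 6 libraries, and the mean deviation was taken per class and library. For elongation genes it was 0.08, 0.31 and 0.07 in MCAO libraries 1, 2 and 3, and -0.12, -0.17 and -0.17 in control libraries 1, 2 and 3. The groups did not overlap, at a mean difference of 0.31, which rests on 10 genes of which several act in one complex. The median log2 difference of these 10 genes was 0.28, and it was 0.20 without MCAO 2. For initiation genes the mean deviation was -0.0184, 0.09 and 0.09 after MCAO and -0.04, -0.0167 and -0.11 in controls, 0.11 apart. Here the groups overlapped, with MCAO 1 just below control 2. The median log2 difference of the 54 initiation genes was 0.16, and it was 0.0949 without MCAO 2. For synthetase genes it was 0.03, -0.05 and 0.09 after MCAO and -0.09, 0.19 and -0.17 in controls, 0.05 apart, within a control SD of 0.19. All genes tested differed by 0.04 on this measure. As members are not replicates, the class differences carry no test.

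Control 2 was often the highest control. It was so in 28 of 37 synthetase genes, in 31 of 54 initiation genes and in 3 of 10 elongation genes, against 4902 of 12549 genes. Outside the symbol rule it was so in 15 of 21 signalling genes and 7 of 11 mitochondrial translation factors. The count was 6 of 12 synthetase cofactors and further synthetase genes, 4 of 8 termination, rescue and recycling genes, and 3 of 6 poly(A) binding genes and partners. Among synthetases it was the highest of all 6 libraries in 16 of 37 (43.2%), against 24.1% of all genes. Control 2 also had the highest neuron marker sum of the controls, 27338, and was the highest control in 10 of 11 neuron markers. Its astrocyte marker sum, 42689.9, was the lowest of the controls, and it was the highest control in 0 of 10 astrocyte markers. Whether the cell content of that library bears on its synthetase values was not tested.

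**Figure D3:**
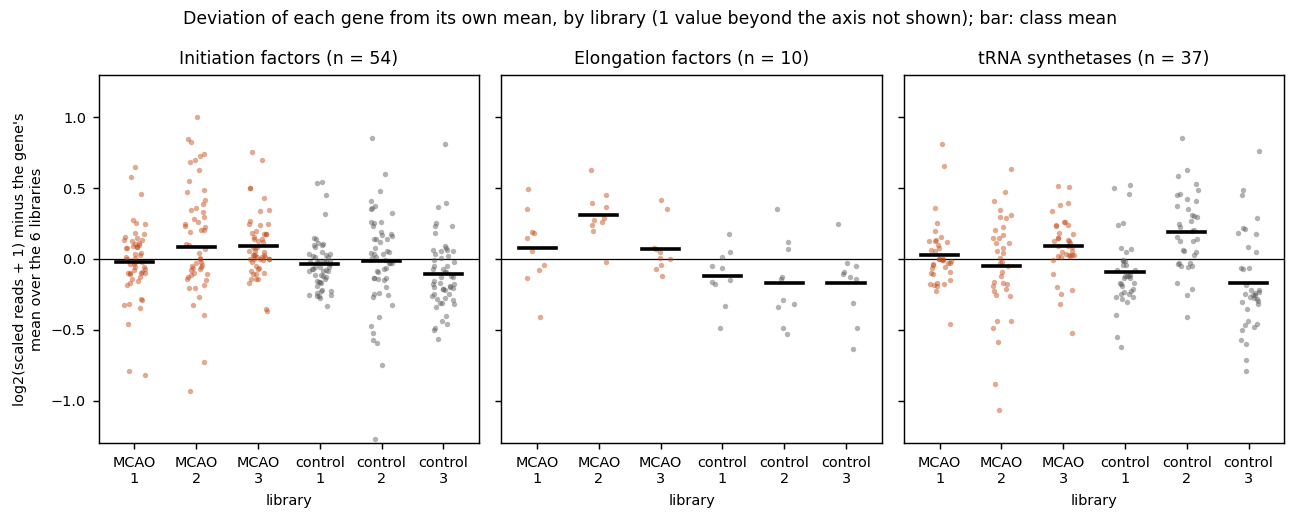
Deviation of each member's log2 value from its mean over the 6 libraries, by library and class, MCAO libraries left of controls, with the class mean as a bar; 1 value lies beyond the axis. Elongation means lie above 0 in the 3 MCAO libraries and below 0 in the 3 controls, and the synthetase mean is highest in control 2.

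For paralogues, 3 pairs were compared as log2 ratios within a library, each with a two-sided exact permutation test whose smallest possible p is 0.1. The ratio of Eef1a2 to Eef1a1 was -2.05, -2.31 and -2.11 in MCAO libraries and -1.91, -1.63 and -2.08 in controls, a difference of -0.29 (SE 0.15, exact permutation p adjusted over the pairs = 0.2). The ratio of Eif4a2 to Eif4a1 was 1.298, 1.37 and 0.93 after MCAO and 1.44, 1.42 and 1.59 in controls, a difference of -0.28 (SE 0.15, adjusted exact permutation p = 0.150). The ratio of Eif4ebp1 to Eif4ebp2 was -0.69, -0.42 and -1.22 after MCAO and -1.92, -3.58 and -1.89 in controls, a difference of 1.69 (SE 0.61, adjusted exact permutation p = 0.150). In the last 2 pairs the groups did not overlap, and 3 animals a group allow no smaller p. The lowest ratio of the binding proteins, in control 2, rests on 2 recovered reads of Eif4ebp1.

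**Figure D4:**
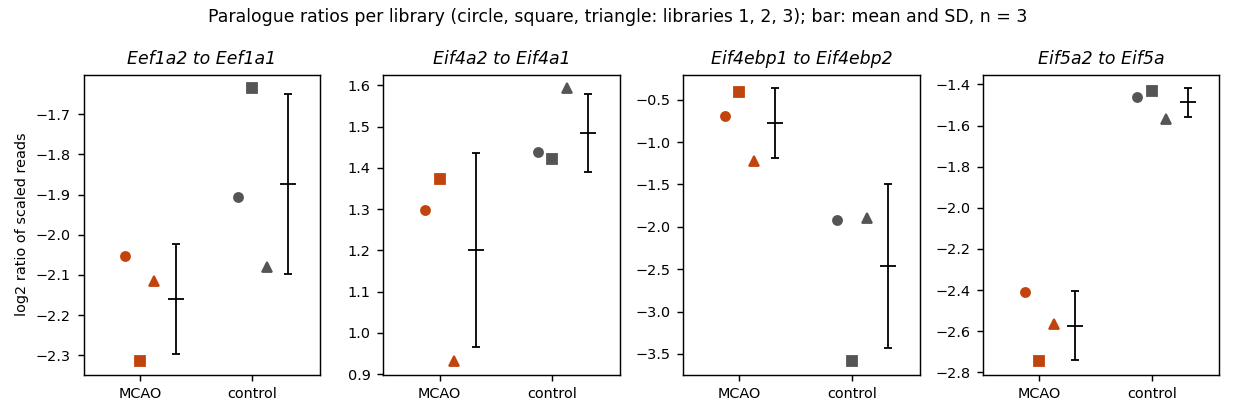
Log2 ratio within each library for 4 pairs of paralogues, MCAO left of control, with the mean and SD of each group (n = 3). The ratio of Eif5a2 to Eif5a, chosen after its values were seen, lies between -2.75 and -2.41 in MCAO libraries, all below the controls, and that of Eef1a2 to Eef1a1 overlaps.

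Of 58 further genes of the pathway outside the symbol rule, limma called 1 higher and none lower after MCAO. Of all genes tested limma called 2.30% higher and 0.789% lower after MCAO. The gene called higher was Mcts1, a partner of Denr in freeing small ribosomal subunits and in restarting translation after upstream reading frames. It had 76.5, 74.6 and 73.3 scaled reads in the MCAO libraries, against 38.0, 42.6 and 36.2 in the controls, with means of 74.8 ± 1.61 and 38.9 ± 3.28 (SD, n = 3 each). The log2 difference was 0.93 (SE 0.23, limma adjusted p = 0.0414), and the adjusted p was between 0.0507 and 0.131 with any 1 library left out. Termination, rescue and recycling genes, Mcts1 included, had a median of 0.11 over 8. The median was 0.04 over 11 mitochondrial translation factors, 0.06 over 12 synthetase cofactors and further synthetase genes, -0.10 over 21 signalling genes upstream of initiation and elongation, and 0.18 over 6 poly(A) binding genes and partners, with 0 called in each by limma, edgeR and DESeq2. At an unadjusted p under 0.05 stood 2, 0, 3 and 1 genes of these last 4 lists, the 3 signalling genes lower after MCAO, against 19.3% of all genes.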

How the data were processed

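Per the labels' protocols, RNA precipitated with tagged ribosomes was extracted with TRIZOL and made into TruSeq libraries. The submitters' processing notes name mm10, CASAVA 1.8, HISAT2 2.0.11, Partek 6.6, R 3.3.1 and DESeq2, without roles or order; nothing in the labels gives the strand setting. The authors deposited 1 table of 12968 genes by 6 libraries whose values are a signal: gene counts divided by a size factor, with values under 1 set to 1 and no gene whose largest value is under 10.6. Dividing by the value of 1 read gave whole reads, within 0.1 read, for 99.95% of values in control 1 and 100% in the other libraries. Floors of 3 reads and intervals cover counting error or spread between these animals only.

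The test was limma 3.58.1 (R 4.3.3) with an intensity trend on log2(value + pseudocount 1), for 12549 genes with a mean of at least 10, both groups in the fit, no covariate, adjusted p under 0.05 (Benjamini-Hochberg). Fold changes understate low genes. On the recovered reads edgeR 4.0.16 called 520 genes and DESeq2 1.42.0 called 549, against 387 by limma. The scripts were tested on simulated data. No column was left unused. Not every promoter match is reported here.

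The members and gene lists, the ATF4 targets among them, were chosen with earlier results of these data known. The text names called members, the 2 most abundant tested genes of each subclass, the extremes of each class and a fixed list (48 genes in all); others are said to be chosen after their values were seen, or are promoter matches. Alternatives covered the test, pseudocount, filter, scaling, each library left out, and the class of Eif5a and of the regulators.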

Additional observations from a re-analysis of the deposited data

How the results depend on the processing

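Of 195 recomputed values 176 were unchanged: counts of calls were equal, and class medians and paralogue ratios moved by less than the larger group SD. A change of sign was not counted for the class medians, and the synthetase median turned from 0.06 to -0.03 without control 3. No called value changed direction. The count of members called was 0 under every scaling, pseudocount and filter tried and with any 1 library left out, and 1 by edgeR, an initiation gene (Eif5a2). Of 2 alternatives chosen after seeing the data, library weights in limma called 2 members, 1 initiation gene (Eif5a2, adjusted p = 0.00636) and 1 synthetase gene (Cars, adjusted p = 0.00829), with 1002 calls over all genes. Leaving out control 2 and MCAO 2 together called 2 members, with 559 calls over 12539 genes. The members were 1 initiation gene (Eif3j1, which may share reads with Eif3j2, limma adjusted p = 0.0425) and 1 synthetase gene (Cars, limma adjusted p = 0.0340). In both, Cars was the 1 ATF4 target called. Mcts1, the call among other pathway genes, was lost, leaving 0, with a mean of at least 50, with quantile normalisation, and with any 1 library left out (0 in each). The initiation median was 0.0949 to 0.18 with 1 library left out, lowest without MCAO 2. The cause of these shifts was not tested. Depth limits the genes under about 20 scaled reads, Eif4ebp1 and Eif4e3 among them. No paired analysis was possible because the replicate numbers only name libraries and tie no MCAO animal to a control.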
